A study of Mus musculus with 6 samples.

Results

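Collagens are the main structural proteins of connective tissue and of basement membranes. Each collagen molecule is a helix of 3 chains, and each chain is the product of its own gene. The genes described here are all those whose symbol has the form Col, a number, the letter a and a number, and for which the array held a probe set annotated to that gene alone. There were 42 such genes among the 18193 genes measured, and they carried 82 of the 45037 probe sets. The RefSeq table lists 44 collagen chain genes in mouse, and Col6a6 and Col28a1 were not analysed here. For each of the 27 genes with more than 1 probe set, the one brightest on average over the 6 arrays, on the log2 scale, stands for the gene.

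The study compared bone marrow stromal cells (BMSC) before and after a stay in an ischemic brain. All cells came from the transgenic Immortomouse strain, which carries H-2Kb-tsA58, a temperature-sensitive Large T antigen under an H-2Kb promoter, so that cells of either group grow at 33°C. The 3 arrays of the parent line (naïve Large T BMSC, replicates 1, 3 and 5) held RNA of cells passaged 3 times in culture. The 3 arrays of stroke-recovered cells (iLarge T BMSC, replicates 2, 4 and 6) held RNA of cells that had been injected into male C57BL/6 mice of 6 to 8 weeks, 24 h after a 60 min occlusion of the middle cerebral artery. They were taken from the infarct at day 14, released with collagenase, selected by growth at 33°C and passaged 3 times. RNA of 3 ischemic hemispheres, or of 3 sets of naïve cells, was pooled for each array. The p-values therefore measure the spread between pools. The labels describe both groups as contact-dependent and fibroblastoid, and all 9 measured stromal markers lay above background on every array. In bulk RNA, fewer cells of a type and less RNA per cell cannot be told apart. Injection, the brain, the collagenase release and selection by growth were shared by all iLarge T arrays and cannot be told apart either.

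Collagen types differ in what they build. Fibrillar collagens (types I, II, III, V, XI, XXIV and XXVII) form the cross-banded fibrils of skin, tendon, bone and cartilage. Fibril-associated collagens with interrupted triple helices (FACIT) sit on the surface of those fibrils. Type IV collagen forms the sheet of every basement membrane, from 6 chains that assemble as α1α1α2, α3α4α5 and α5α5α6. The short-chain network collagens (types VIII and X) form hexagonal lattices, type VI forms beaded filaments, and type VII forms the anchoring fibrils that tie epithelium to the tissue beneath it. Multiplexins (types XV and XVIII) are proteoglycans of basement membrane zones, and the transmembrane collagens (types XIII, XVII, XXIII and XXV) span the cell surface.

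A gene is called higher or lower where iLarge T and naïve BMSC differed by at least 2-fold at an adjusted p under 0.05 (limma, Benjamini-Hochberg over all probe sets). The genes of the 6 type IV chains lie head to head in pairs, and the results below turn on these pairs. The bases from the one start site to the other are therefore shown for the pairs that stand close together, from RefSeq on build GRCm38.p6, read 5′ to 3′ along the plus strand. The start site of the Col4a4 promoter window and the RefSeq start of Col4a3 are 72 bases apart, with chr1:82586850-82586920 between them. The RefSeq gene Col4a4 as a whole reaches chr1:82587034, beyond the Col4a3 start at 82586921. Col4a1 and Col4a2 start 21 bases apart, and chr8:11312805-11312826 runs from the one start site to the other. Col4a1, on the minus strand, starts at 11312826 and Col4a2, on the plus strand, at 11312805. Their transcripts thus overlap, and these bases lie within both. Capitals mark a GC box, the letters GGGCGG on either strand.
Col4a4 and Col4a3: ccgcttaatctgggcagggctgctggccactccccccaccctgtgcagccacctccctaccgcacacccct
Col4a1 and Col4a2: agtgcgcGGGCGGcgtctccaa
The stretch of the pair whose signals were lower in iLarge T BMSC held none of the motifs searched, and the stretch of the pair without a call held 1 GC box. The former lies between start sites and the latter within overlapping transcripts, so they are not like stretches.

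Col4a6 and Col4a5 start 1343 bases apart on chromosome X. The 250 bases before each start site are shown, since only Col4a6 of this pair was called. They are chrX:141474077-141474326 for Col4a6, on the minus strand, and chrX:141475169-141475418 for Col4a5, on the plus strand. Capitals mark a GC box (GGGCGG) or a CCAAT box (CCAAT), on either strand.
Col4a6: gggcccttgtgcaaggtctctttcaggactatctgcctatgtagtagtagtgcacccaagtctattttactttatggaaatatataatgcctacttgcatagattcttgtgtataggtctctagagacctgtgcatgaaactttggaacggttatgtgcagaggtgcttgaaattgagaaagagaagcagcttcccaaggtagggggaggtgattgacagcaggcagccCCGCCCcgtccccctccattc
Col4a5: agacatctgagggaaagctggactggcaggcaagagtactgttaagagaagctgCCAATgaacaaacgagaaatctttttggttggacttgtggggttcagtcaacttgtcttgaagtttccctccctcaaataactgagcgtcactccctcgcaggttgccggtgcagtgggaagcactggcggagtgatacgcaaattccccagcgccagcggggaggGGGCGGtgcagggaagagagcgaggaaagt
Both sequences held a GC box, and that of Col4a5 also held a CCAAT box.

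The 250 bases before the start sites of Col10a1 and Col8a1 are shown as a pair of network collagens that were both called higher. They are chr10:34389731-34389980 on the plus strand and chr16:57754738-57754987 on the minus strand. Capitals mark a TATA box (TATAAA, on either strand) in Col10a1 and GC boxes in Col8a1.
Col10a1: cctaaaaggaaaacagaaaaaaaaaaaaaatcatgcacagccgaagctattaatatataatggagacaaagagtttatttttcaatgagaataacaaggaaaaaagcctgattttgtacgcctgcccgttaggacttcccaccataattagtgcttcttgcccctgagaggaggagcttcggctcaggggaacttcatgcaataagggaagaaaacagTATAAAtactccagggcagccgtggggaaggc
Col8a1: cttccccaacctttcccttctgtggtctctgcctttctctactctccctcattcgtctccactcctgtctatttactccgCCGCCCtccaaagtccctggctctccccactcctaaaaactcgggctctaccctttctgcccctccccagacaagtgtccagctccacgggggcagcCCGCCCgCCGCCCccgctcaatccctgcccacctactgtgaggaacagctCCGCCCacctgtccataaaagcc
The stretches held different motifs of those searched. RefSeq windows of 300 bases (250 before and 50 after the start site) were at hand for 33 of the 42 genes, 36 windows in all. The called genes Col2a1, Col12a1 and Col4a3 had none. The windows of Col4a1 and Col4a2 overlap, as do those of Col6a2, so the 36 windows are not all separate stretches. A GC box was found in 61.1% of the 36 windows and in 35.7% of all 32851 mouse windows. A CCAAT box was found in 36.1% against 37.4%, and TATAAA in 13.9% against 13.6%. No match printed above shares bases with a match of another motif. A match of letters is a description of the sequence and shows no binding.

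Collagen genes moved in both directions. In iLarge T BMSC, 8 of the 42 genes were called higher, 3 were called lower and 31 were not called. The share called higher was 19% of the collagen genes, against 3.54% of all genes. The share called lower was 7.14%, against 3.26% of all genes. Those called higher were the fibrillar Col2a1 and Col5a1, the FACIT Col12a1 and Col16a1, the network chains Col8a1 and Col10a1, the anchoring fibril chain Col7a1 and the multiplexin Col18a1. All 3 genes called lower, Col4a3, Col4a4 and Col4a6, encode basement membrane chains. The arrays of the 2 groups did not overlap, with iLarge T BMSC higher, for 12 collagen genes, against 14.5% of all genes. They did not overlap, with iLarge T BMSC lower, for 5 collagen genes, against 13.1% of all genes. The median log2 fold change was 0.75 over the 42 collagen genes and 0.06 over all genes.

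The calls depended on how limma models the variance and on which arrays were kept. Without the trend of variance on intensity, limma called 0 collagen genes, and 85 higher and 48 lower of all 18193 genes. At an unadjusted limma p under 0.05, 12 collagen genes were then higher and 4 lower, against 1760 and 1395 of all genes. The methods' t-test called 0 on log2 signals, with 10 higher and 4 lower at an unadjusted p under 0.05, and 0 on linear signals, with 7 and 4. With limma and the trend, leaving out naïve replicate 1 kept all 11 calls and added Col1a2, Col5a3, Col6a3, Col11a1 and Col27a1, which made 13 genes higher and 3 lower. Over all genes, 1298 were then called higher and 1214 lower, against 644 and 593 with all 6 arrays. Leaving out any of the other 5 arrays ended some calls. The genes called higher then numbered 4 without either naïve replicate 3 or 5, and 2, 5 and 2 without iLarge T replicates 2, 4 and 6 in turn. The genes called lower numbered 1 without naïve replicate 3 and 1 without naïve replicate 5. Over all genes, 319 were called higher and 232 lower without naïve replicate 3, and 362 and 288 without naïve replicate 5. Without iLarge T replicates 2, 4 and 6 in turn, 328, 250 and 289 of all genes were called higher and 355, 350 and 345 lower. Col2a1, Col18a1 and Col4a4 kept their calls whichever array was left out. Arrays 1 and 2, 3 and 4, and 5 and 6 had close signals of the spike-in controls, and a fit with these array pairs as a block, added after the data were seen, kept all 11 calls and called Col1a1, Col1a2, Col5a3 and Col6a3 higher as well. Over all genes the fit with the block called 910 higher and 885 lower.

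**Figure D1:**
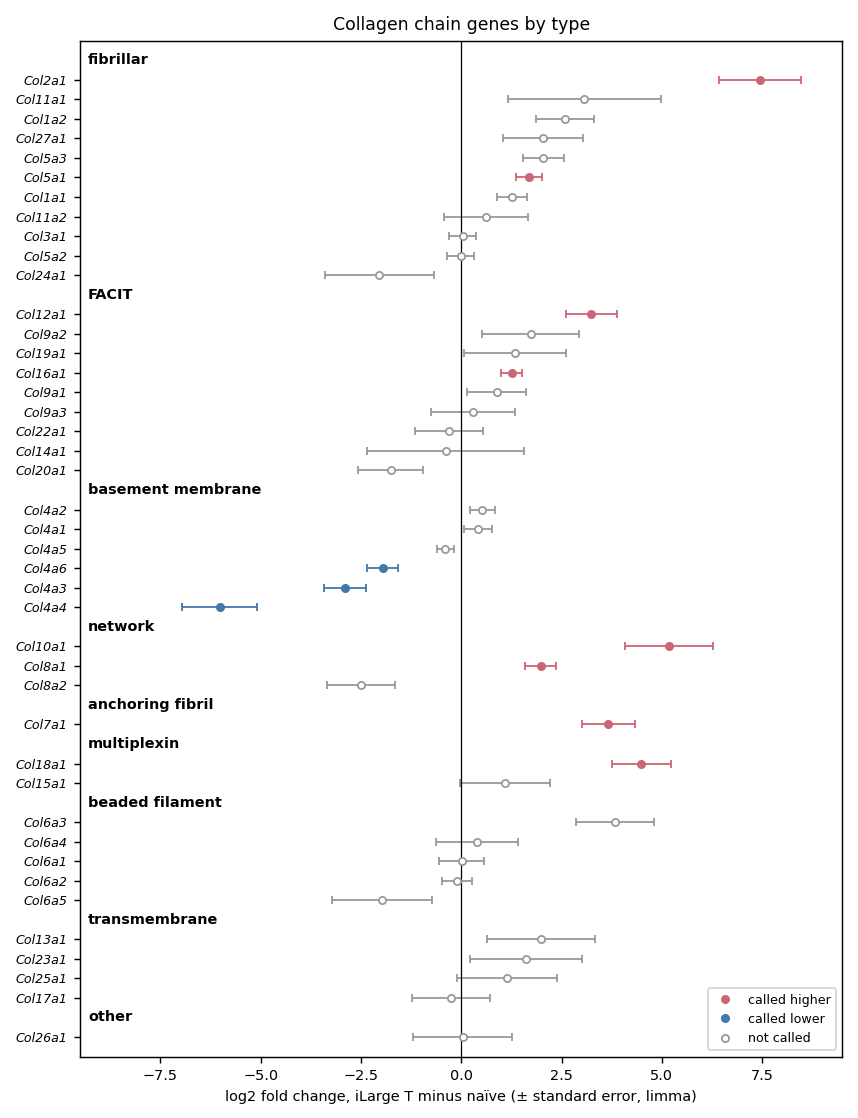
Log2 fold changes (horizontal axis, iLarge T minus naïve, 3 arrays per group) of the 42 collagen chain genes, grouped by type, as points with standard errors from limma. Red points are the 8 genes called higher, blue points the 3 genes called lower and open grey points the 31 genes not called, and the blue points all stand among the basement membrane chains.

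Some arrays stood apart. Naïve replicate 1 correlated with the other naïve arrays at 0.829 and 0.831 over log2 signals of all probe sets, while those correlated with each other at 0.892. It lay more than 4-fold from both other naïve arrays for 8 of the 42 collagen genes (19%), against 11.5% of all genes. It was the higher for 7 of them (Col1a2, Col6a3, Col11a1, Col12a1, Col14a1, Col15a1 and Col27a1) and the lower for Col6a1. On iLarge T replicate 6, the summed signal of 10 macrophage and microglia markers was 130923, against 2972 to 10979 on the other 5 arrays, and 1 of them was called higher and 0 lower. Most of the naïve sum came from Cd68 on replicates 3 and 5. Without Cd68 the other 9 markers summed to 1106 to 2428 on the naïve arrays and to 6824, 6062 and 113962 on iLarge T replicates 2, 4 and 6, so that all 3 iLarge T arrays were higher. C1qa, a complement gene of macrophages, was at 8547 on this array and at 9.15 to 23.9 on the others. The 8 endothelial markers summed to 61042 on replicate 6, against 8334 to 11901 on the other 5 arrays. Most of the naïve sum was Tek, and without Tek the other 7 summed to 2631 to 2821 on the naïve arrays and to 8931, 8864 and 59742 on the iLarge T arrays, all of them higher. Other marker lists differed between groups. Of 8 mural cell markers 2 were called higher and 0 lower, with a summed signal of 33279 to 153121 in naïve and 139931 to 182685 in iLarge T BMSC, most of it from Acta2, and without Acta2 of 1061 to 1796 and then 7955 to 41348. Of 8 markers of meningeal and perivascular fibroblasts 3 were called higher and 0 lower, with 4249 to 7902 and then 29925 to 69917. Of 7 glial markers 1 was called higher and 0 lower, with 1635 to 2321 and then 3080 to 8611. Of the 9 stromal markers 3 were called higher and 0 lower, with 186277 to 391729 and then 458005 to 632769. The part of these cells in the collagen results was not tested. Signals in each sentence below are given in the order of naïve replicates 1, 3 and 5 and then of iLarge T replicates 2, 4 and 6. A gene is called near background in a group where all 3 arrays lay under the 40th percentile of their own array, which was at 182.5 to 299.6.

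Among fibrillar collagens, Col2a1 and Col5a1 rose. The chains of types I and III were not called with all 6 arrays, signals as deposited and no block. Of the 11 fibrillar genes, 2 were called higher and 0 lower, 9 had a positive fitted change, and their median log2 fold change was 1.69. Col2a1, the chain of type II collagen and the defining collagen of cartilage, gave signals of 23.5, 40.5 and 12.4 in naïve and 7593, 10085 and 811 in iLarge T BMSC. It was near background on all 3 naïve arrays and above it on all 3 iLarge T arrays, of which replicate 6 was the lowest. The fitted log2 fold change was 7.44 ± 1.02 (SE, n = 3 per group, limma adjusted p = 0.00388), and raising low signals to the 40th percentile of their array gave a bound of at least 18.1-fold. Leaving out iLarge T replicate 4 changed the fitted value to 6.77 and the bound to 11.3-fold, and leaving out iLarge T replicate 6 changed them to 8.59 and 40-fold.

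Of the other genes known from cartilage, Col10a1 was called (below) and the chondrocyte markers were not. Of these 8 markers, 0 were called by limma and 0 lay above background on all 6 arrays. At an unadjusted limma p under 0.05, 1 of the 8 was higher and 0 lower, against 2106 and 1905 of all 18193 genes. The summed signal of the 8 markers was 602 to 2231 in naïve and 1262 to 2345 in iLarge T BMSC. Fitted changes were positive for 6 of the 8 and negative for 2. Acan, the core protein of aggrecan, gave 397, 36.4 and 156 and then 214, 336 and 317, and the groups overlapped. Hapln1, named after its values were seen, gave 11.9, 86.0 and 9.84 and then 280, 314 and 129. Its groups did not overlap, only iLarge T replicate 4 was above background, and it was not called (log2 fold change 3.38, limma adjusted p = 0.164). Neither the other cartilage collagens Col9a1, Col9a2, Col9a3 and Col11a2 nor Col11a1 was called. On the probe sets used, Col9a2 and Col9a3 were near background on all 6 arrays. Another probe set of Col9a3 was at 9.87, 5.08 and 11.2 and then at 15.9, 281 and 136, above background on iLarge T replicate 4 and with no overlap between groups, but it was not called (log2 fold change 3.36, limma adjusted p = 0.203).

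Col5a1, a chain of type V collagen that helps to start fibrils and set their width, gave signals of 17178, 9327 and 10647 in naïve and 50639, 25852 and 43905 in iLarge T BMSC. The groups did not overlap, and the log2 fold change was 1.69 ± 0.33 (SE, limma adjusted p = 0.0183). Without naïve replicate 3, naïve replicate 5, iLarge T replicate 2 or iLarge T replicate 6, Col5a1 was not called (limma adjusted p = 0.0899, 0.0747, 0.0777 and 0.0836). The other probe sets of Col5a1 gave log2 fold changes of 1.11 and 1.26 and were not called (limma adjusted p = 0.145 and 0.197). Col5a2, the partner chain, gave 173608, 89633 and 86596 and then 147451, 93248 and 94453, and its groups overlapped. Its other probe set was called lower, with 57369.7, 56498 and 57587 in naïve and 25039, 10292 and 18279 in iLarge T BMSC and a log2 fold change of -1.77 (limma adjusted p = 0.0125). The probe sets of Col5a2 thus disagreed. On the probe sets used here, the log2 ratio of Col5a1 to Col5a2 rose by 1.71 and did not overlap between groups. Col5a3, the third type V chain, gave 465, 493 and 596 and then 2956, 991 and 3268. Its groups did not overlap either, but the log2 fold change of 2.04 ± 0.51 missed the threshold (limma adjusted p = 0.0522), and its dimmer probe set gave -1.91. With the array pairs as a block Col5a3 was called higher (limma adjusted p = 0.0305).

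Type I collagen, the main collagen of bone, tendon and skin, is made of Col1a1 and Col1a2 chains. Col1a1 gave 18138, 42876 and 45471 in naïve and 86352, 59091 and 94939 in iLarge T BMSC. The groups did not overlap, with a log2 fold change of 1.26 ± 0.37 (SE, limma adjusted p = 0.0932), but the other probe set of Col1a1 gave -1.22 and neither was called. With the array pairs as a block, the brighter one was called higher (limma adjusted p = 0.0447). Col1a2 gave 47214, 4795 and 8358 and then 116209, 42219 and 85647. Naïve replicate 1 was higher than iLarge T replicate 4 here, and the log2 fold change of 2.60 ± 0.72 was not called (limma adjusted p = 0.0775). Without naïve replicate 1, it was 3.56 (limma adjusted p = 0.000535), and with all 6 arrays and the block Col1a2 was called as well (limma adjusted p = 0.00593). Col3a1, which forms fibrils together with type I collagen, gave 127207, 79514 and 81959 and then 116416, 61965 and 122732. The groups overlapped over nearly their whole range, with a log2 fold change of 0.03 ± 0.33. The other probe set of Col3a1 gave 27875, 21672.5 and 21203 and then 19694, 7547 and 21968. Its groups overlapped too, and it was not called (log2 fold change -0.66, limma adjusted p = 0.435).

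Col11a1, a chain of the thin fibrils of cartilage, was the least even of the fibrillar genes, with 14678, 14.6 and 311 in naïve and 6841, 2325 and 2478 in iLarge T BMSC. Naïve replicate 1 was above every iLarge T array and the other naïve arrays were below all of them, and the log2 fold change of 3.07 ± 1.90 was not called (limma adjusted p = 0.469). For Col27a1, at 1267, 112 and 73.2 and then 1432, 807 and 628, naïve replicate 1 lay among the iLarge T arrays, with a log2 fold change of 2.04 ± 1.0 (SE). Without naïve replicate 1 the log2 fold changes were 5.66 for Col11a1 (limma adjusted p = 0.00841) and 3.31 for Col27a1 (limma adjusted p = 0.0141). Col11a2 and Col24a1 had signals of 8.34 to 399 over all arrays and overlapped between groups.

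**Figure D2:**
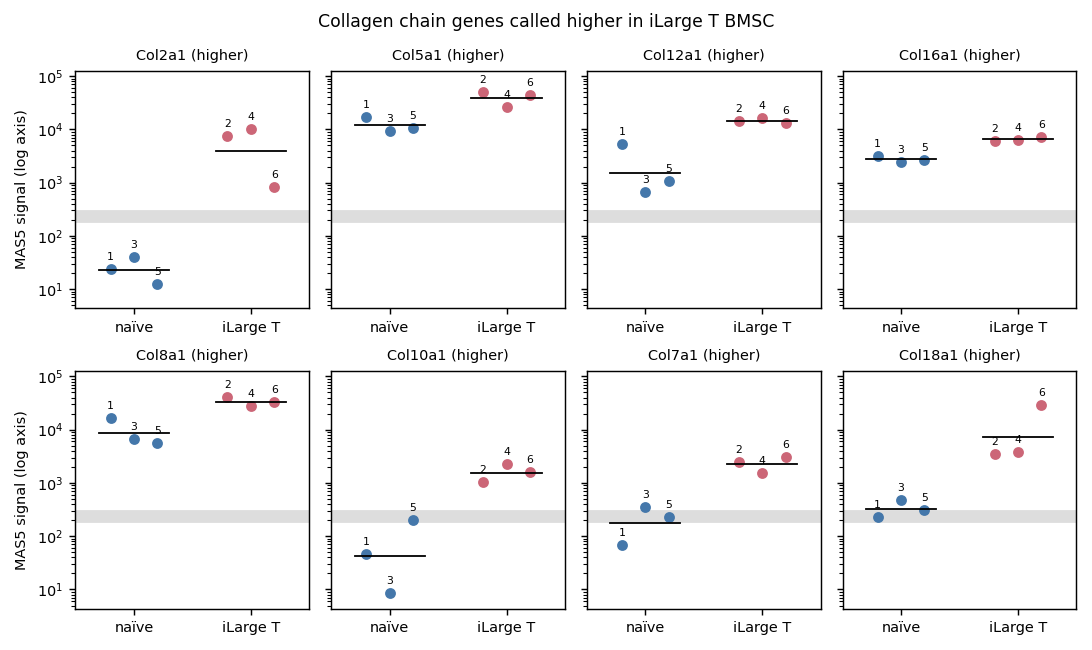
MAS5 signals (vertical log axis) of the 8 collagen genes called higher, 1 panel per gene, for 3 naïve arrays (blue) and 3 iLarge T arrays (red), each point labelled with its replicate number. Black lines are geometric means and the grey band spans the 40th percentiles of the 6 arrays (182.5 to 299.6). In every panel all red points stand above all blue points, and Col2a1 has its 3 naïve points under the band.

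Among the 9 FACIT genes, 2 were called higher and 0 lower, with a median log2 fold change of 0.88. Col12a1, which coats type I fibrils in dense connective tissue, gave 5323, 656 and 1058 in naïve and 14186, 16666 and 13098 in iLarge T BMSC. Every iLarge T array exceeded every naïve array, and naïve replicate 1 was the highest of its group. Its log2 fold change was 3.24 ± 0.63 (SE, limma adjusted p = 0.019). Leaving out naïve replicate 3, naïve replicate 5, iLarge T replicate 2, iLarge T replicate 4 or iLarge T replicate 6 ended the call (limma adjusted p = 0.0562, 0.0627, 0.0804, 0.0897 and 0.0744). Without naïve replicate 1 the fitted change was 4.13 and it was 2.62 when naïve replicate 3 was left out. A further bright probe set of Col12a1 was called as well, at 2.46 (limma adjusted p = 0.0307). The remaining 2 probe sets were dim, with signals of 8.66 to 288, and gave -0.77 and -0.75, so that the direction turned where the most variable probe set stood for the gene.

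Col16a1, a minor collagen of fibril surfaces and of cell-matrix contacts, gave 3187, 2444 and 2605 in naïve and 5942, 6383 and 7305 in iLarge T BMSC. It had the smallest standard error of the 11 called genes, 0.26 on a log2 fold change of 1.26 (limma adjusted p = 0.0237). The call was lost without naïve replicate 3, naïve replicate 5, iLarge T replicate 2, iLarge T replicate 4 or iLarge T replicate 6 (limma adjusted p = 0.123, 0.101, 0.0582, 0.0995 and 0.0915). Col14a1, also a coat of type I fibrils, gave 2069.7, 21.0 and 204 and then 514, 9.27 and 827, and the groups overlapped. Its spread within groups was wider than the difference, with a log2 fold change of -0.39 ± 1.95. Col9a1 did not overlap between groups, at 107, 243 and 214 and then 254, 397 and 344, but was not called (log2 fold change 0.88 ± 0.74, limma adjusted p = 0.623). Col20a1 gave 374, 770.0 and 639 and then 182, 395 and 67.1, with a log2 fold change of -1.75 ± 0.81 (limma adjusted p = 0.3). All 4 of its probe sets had a negative fitted change, and none was called. Col19a1 and Col22a1 overlapped between groups.

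The 3 network genes split. Col8a1, a chain of type VIII collagen, which is found in vessel walls and beneath the corneal endothelium, gave 16410.0, 6677 and 5601 in naïve and 41713, 27927 and 32595 in iLarge T BMSC. The groups did not overlap, and the log2 fold change was 1.98 ± 0.39 (SE, limma adjusted p = 0.0186). Without naïve replicate 3, naïve replicate 5, iLarge T replicate 2, iLarge T replicate 4 or iLarge T replicate 6, Col8a1 was not called (limma adjusted p = 0.0838, 0.0699, 0.0858, 0.0605 and 0.0746). The other 2 probe sets gave 1.39 and 1.78 and were not called (limma adjusted p = 0.0993 and 0.149). Col8a2, the other type VIII chain, went the other way, at 970.4, 1338 and 1295 and then 51.1, 297 and 608. All naïve arrays were above all iLarge T arrays, but the log2 fold change of -2.50 ± 0.85 was not called (limma adjusted p = 0.145). The log2 ratio of Col8a1 to Col8a2 rose by 4.49 and did not overlap between groups. Col8a2 was under the 40th percentile on iLarge T replicate 2, and with low signals raised to that percentile the rise was 3.64. With 3 arrays against 3, an exact two-sided permutation test of such a ratio cannot give a p under 0.1.

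Col10a1, the collagen of hypertrophic cartilage, gave 46.7, 8.69 and 198 in naïve and 1061, 2299.7 and 1572 in iLarge T BMSC. Naïve replicates 1 and 3 lay under the 40th percentile of their arrays and naïve replicate 5 just above it, while all iLarge T arrays were above it. Its log2 fold change was 5.18 ± 1.09 (SE, limma adjusted p = 0.0259) and 2.81 with low signals raised to that percentile. Leaving out iLarge T replicate 2, iLarge T replicate 4 or iLarge T replicate 6 ended the call (limma adjusted p = 0.0844, 0.136 and 0.109). Without naïve replicate 3 the fitted change was 4.02 and it was 6.28 when naïve replicate 5 was left out.

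Col7a1, whose product forms the anchoring fibrils, gave 69.0, 356 and 232 in naïve and 2494, 1542 and 3053 in iLarge T BMSC. The groups were well apart, with a log2 fold change of 3.67 ± 0.67 (SE, limma adjusted p = 0.0131). The call was lost without iLarge T replicate 2 or iLarge T replicate 6 (limma adjusted p = 0.0693 and 0.0797). Without naïve replicate 1 the fitted change was 2.98. Of the 2 multiplexins, Col18a1 was called. Its product carries heparan sulfate in basement membranes and yields the fragment endostatin. It gave 230.1, 481 and 306 in naïve and 3488, 3848 and 28722 in iLarge T BMSC. Replicate 6 exceeded the other iLarge T arrays, and all 3 exceeded every naïve array. It had a log2 fold change of 4.49 ± 0.73 (SE, limma adjusted p = 0.00847), and its other probe set gave 4.04 (limma adjusted p = 0.0267). Without iLarge T replicate 6 it was 3.50 (limma adjusted p = 0.0157).

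The endothelial and macrophage marker sums named above were also highest on iLarge T replicate 6. So were 3 other sums, given for iLarge T replicates 2, 4 and 6. These were mural markers without Acta2 (13197, 7955.5 and 41348), meningeal and perivascular fibroblast markers (32626.5, 29925 and 69917) and glial markers (3080, 4751.5 and 8611). The stromal sum was lowest on replicate 6 among the iLarge T arrays (632769, 543332 and 458005). On iLarge T replicates 2 and 4, where Col18a1 was at 3488 and 3848, the endothelial sum without Tek was 8931 and 8864, above the naïve arrays as well. Of the 8 endothelial markers, Cdh5 and Emcn were called higher, and Tek, which gave 5703, 8480 and 9080 in naïve and 502, 458 and 1300 in iLarge T BMSC, was called lower. Cdh5, the cadherin of endothelial junctions, gave 209.9, 32.0 and 27.5 and then 2211, 2787 and 23797, so that it too was above the naïve arrays on every iLarge T array. Col15a1, the other multiplexin, gave 687, 63.7 and 95.7 and then 267, 137 and 1103, and its groups overlapped (log2 fold change 1.09 ± 1.13, limma adjusted p = 0.703). The part of endothelial, macrophage, mural, meningeal or glial RNA in the difference of Col18a1 was not tested.

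**Figure D3:**
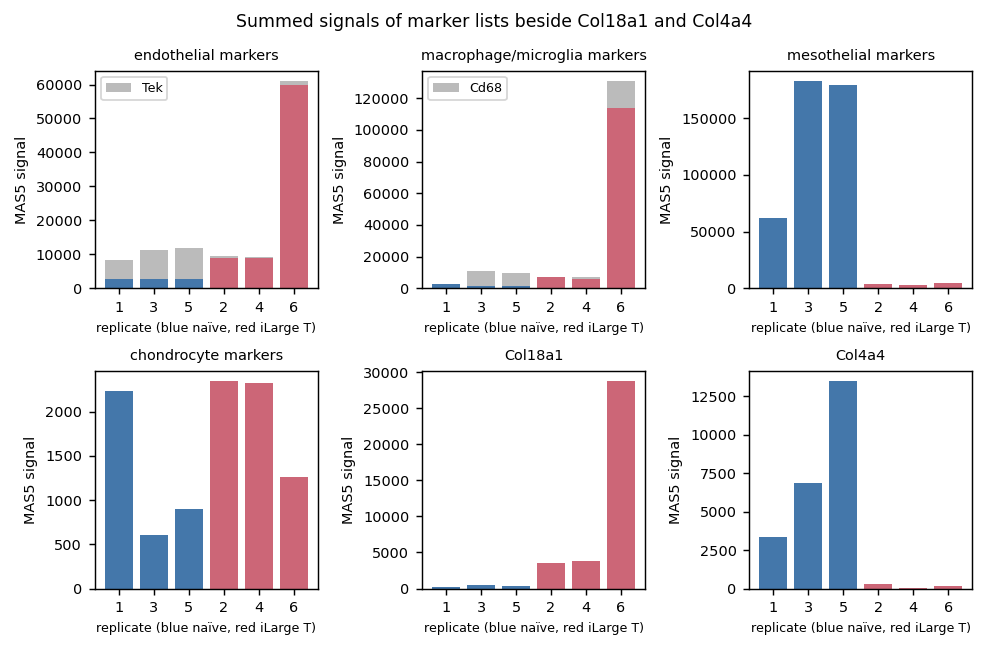
Summed MAS5 signals of 4 marker lists (endothelial, 8 genes; macrophage and microglia, 10; mesothelial, 6; chondrocyte, 8) and single-gene MAS5 signals of Col18a1 and Col4a4 on each array, all on linear axes from 0. Blue bars are naïve replicates 1, 3 and 5 and red bars iLarge T replicates 2, 4 and 6, and the grey parts stacked on top are Tek and Cd68. The endothelial and macrophage sums and Col18a1 are highest on replicate 6 and, without the grey parts, higher on all iLarge T arrays than on any naïve array, and the mesothelial sum and Col4a4 are higher on all naïve arrays than on any iLarge T array.

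The basement membrane chains were the type with lower calls. Of the 6 type IV genes, 3 were called lower and 0 higher, and the median log2 fold change was -1.17. Col4a1 and Col4a2, which make the α1α1α2 network found in nearly every basement membrane, were bright in both groups and were not called. Col4a1 gave 135118, 59437 and 64228 in naïve and 130315, 77838 and 120931 in iLarge T BMSC, with a log2 fold change of 0.42 ± 0.36 (SE, limma adjusted p = 0.627). Col4a2 gave 37848, 31311 and 32050.1 and then 37069.9, 39418 and 77565, with a log2 fold change of 0.53 ± 0.31 (limma adjusted p = 0.434). The groups overlapped for both, and Col4a2 was highest on iLarge T replicate 6.

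Col4a3 and Col4a4 encode chains of the α3α4α5 network, which is known from the basement membranes of kidney, lung and inner ear. Col4a4 gave 3354, 6845 and 13469.5 in naïve and 308, 21.2 and 171 in iLarge T BMSC. Every naïve array was above every iLarge T array by a wide margin, and iLarge T replicates 4 and 6 lay under their 40th percentile. The log2 fold change was -6.03 ± 0.93 (SE, limma adjusted p = 0.00647) and -4.76 with low signals raised to that percentile. Leaving out iLarge T replicate 2 changed it to -6.81, and leaving out replicate 4 to -4.88. All 3 probe sets of Col4a4 were called lower, the others at -8.26 (limma adjusted p = 0.000827) and -5.35 (limma adjusted p = 0.042). Col4a3 gave 1164, 1838 and 1686 in naïve and 172, 319 and 158 in iLarge T BMSC. Naïve arrays were all higher, and the log2 fold change was -2.90 ± 0.53 (SE, limma adjusted p = 0.0142). Without naïve replicate 3 or naïve replicate 5, Col4a3 was not called (limma adjusted p = 0.105 and 0.0887). Its other probe set gave -3.67 and was not called (limma adjusted p = 0.121). Both genes of this head-to-head pair were thus lower, and the 71 bases between the start sites used are those printed above.

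Col4a5 and Col4a6 share the α5α5α6 network of smooth muscle and of several epithelia, and Col4a5 also enters α3α4α5. Col4a6 gave 5012, 7789 and 9774 in naïve and 1182, 1926 and 2888 in iLarge T BMSC. There was no overlap between groups and all arrays were above background, with a log2 fold change of -1.95 ± 0.39 (SE, limma adjusted p = 0.0202). Leaving out naïve replicate 3, naïve replicate 5, iLarge T replicate 2 or iLarge T replicate 4 ended the call (limma adjusted p = 0.0888, 0.0908, 0.0684 and 0.0804). Its other probe set was called too, at -2.01 (limma adjusted p = 0.0182). Col4a5 gave 31994, 37088 and 32165 and then 26880.4, 27237 and 23005. Here too the groups did not overlap, but the log2 fold change was only -0.39 ± 0.22 and was not called (limma adjusted p = 0.404). The members of this pair thus moved unequally. The log2 ratio of Col4a6 to Col4a5 fell by 1.56 and did not overlap between groups. Col4a4 lay under the 40th percentile on 2 of the 3 iLarge T arrays, so its ratio to Col4a1, which did not overlap either, has only a bound. With low signals raised to that percentile, the log2 ratio of Col4a4 to Col4a1 fell by 5.18.

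Markers of mesothelium, the epithelium that lines body cavities, were lower in iLarge T BMSC alongside these 3 chains. Of 6 mesothelial markers, 5 were called lower and 0 higher. Their summed signal was 61921 to 182952 on the naïve arrays and 2767 to 4229 on the iLarge T arrays. Upk3b, a defining marker, gave 20652, 76456 and 78960.1 in naïve and 46.5, 29.3 and 67.9 in iLarge T BMSC. Naïve replicate 1 had the lowest summed signal of the naïve arrays, and it also had the lowest signal of Col4a3, Col4a4 and Col4a6 among them. Bnc1 was highest on naïve replicate 1, with 31530, 29821 and 27089 on the naïve arrays, while the other markers were lowest there. Naïve replicates 3 and 5 had close sums, 182952 and 179111, but Col4a4 was at 6845 and 13469.5 on them. The part of the lower mesothelial markers in the lower type IV chains was not tested.

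**Figure D4:**
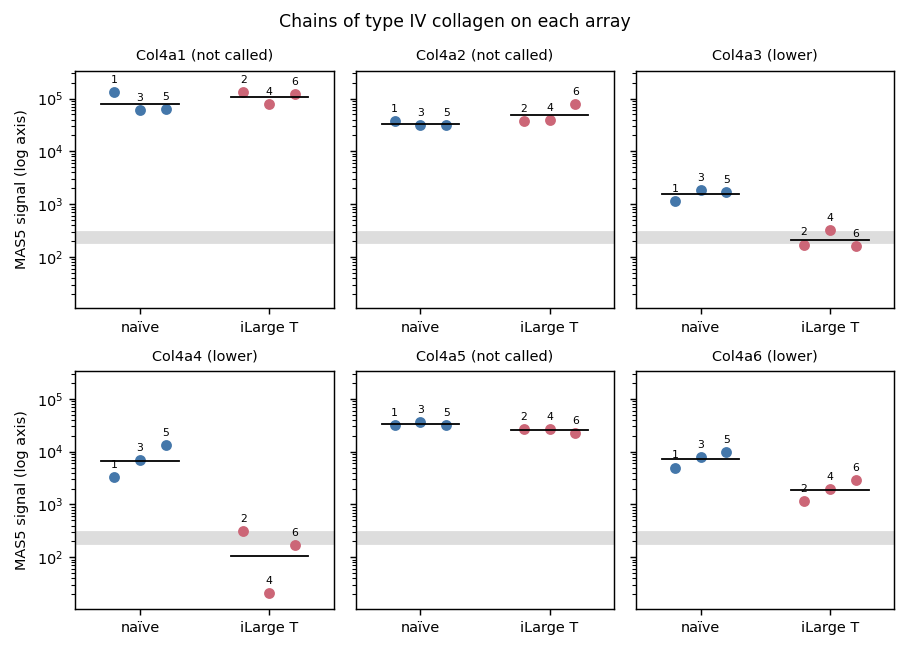
MAS5 signals (vertical log axis) of the 6 type IV collagen chains, 1 panel per gene, for 3 naïve arrays (blue) and 3 iLarge T arrays (red), labelled with replicate numbers. Black lines are geometric means and the grey band spans the 40th percentiles of the arrays (182.5 to 299.6). The groups overlap for Col4a1 and Col4a2, lie close for Col4a5 and are apart for Col4a3, Col4a4 and Col4a6.

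Of the 5 measured genes of type VI collagen, the beaded filament around cells, 0 were called by limma, and their median log2 fold change was 0.01. At an unadjusted limma p under 0.05, 1 of the 5 was higher and 0 lower, against 2106 and 1905 of all 18193 genes. Col6a1 gave 6046, 32464 and 32336 in naïve and 15749.7, 22877 and 17951 in iLarge T BMSC, and Col6a2 gave 7238, 20729 and 18247 and then 14346, 13474 and 11449. Naïve replicate 1 was the lowest of all 6 arrays for both chains, and the iLarge T arrays lay between it and the other naïve arrays. Col6a3, which encodes the largest of the classic type VI chains, gave 477, 51.6 and 72.7 and then 3941, 578 and 2268. All iLarge T arrays were above all naïve arrays, with a log2 fold change of 3.83 ± 0.98 (SE) that missed the threshold (limma adjusted p = 0.057). Without naïve replicate 1 the log2 fold change of Col6a3 was 4.82 (limma adjusted p = 0.00485), and with all 6 arrays and the array pairs as a block Col6a3 was called higher (limma adjusted p = 0.00975). The log2 ratio of Col6a3 to Col6a1 rose by 3.82, or by 2.72 with low signals raised, but overlapped between groups. Col6a4 and Col6a5 had signals of 11.6 to 226, and Col6a5 was near background on all 6 arrays.

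Of the 4 transmembrane collagens, 0 were called by limma, and none lay above background on all 6 arrays. At an unadjusted limma p under 0.05, 0 of the 4 were higher and 0 lower, against 2106 and 1905 of all 18193 genes. Col23a1 gave 123, 131 and 29.4 in naïve and 26.7, 651 and 797 in iLarge T BMSC. Replicates 4 and 6 were above background and replicate 2 was not, and the log2 fold change of 1.62 ± 1.40 was not called (limma adjusted p = 0.632). Col13a1 and Col25a1 had signals of 7.56 to 361 and overlapped between groups, and Col17a1, a component of hemidesmosomes, was near background on all 6 arrays. Col26a1, which belongs to none of these types, overlapped between groups at 36.0 to 455. Over the 42 genes, 15 were above the 40th percentile on all 6 arrays, 4 were near background in both groups on the probe sets used and 4 in naïve BMSC only. Fold changes of these 8 genes are bounds or are not precise.

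Genes that fold, process, bind or regulate collagen were counted from 4 lists with 56 measured genes. Of these, 5 were called higher and 2 lower, which is 8.93% and 3.57%, against 3.54% and 3.26% of all genes. The groups did not overlap for 19 of the 56 with iLarge T BMSC higher, against 14.5% of all genes. They did not overlap for 5 of the 56 with iLarge T BMSC lower, against 13.1% of all genes. The median log2 fold change of the 56 genes was 0.94. Limma without the intensity trend and the methods' t-test on either scale called 0 of the 56 genes, with 18 higher and 3 lower, 12 and 2 (log2 signals) and 11 and 3 (linear signals) at an unadjusted p under 0.05. Over all 18193 genes, the same unadjusted threshold gave 1760 higher and 1395 lower for limma without the trend. For the other fits it gave 1764 and 1732 (log2 signals) and 1612 and 1592 (linear signals). Calls over all genes in these fits are given below. Leaving out naïve replicate 1 gave 17 higher calls, while the other arrays left 1 (without iLarge T replicate 6) to 4. The lower calls numbered 0 without naïve replicate 3, naïve replicate 5 or iLarge T replicate 2, and 1 when iLarge T replicate 4 or 6 was left out. Calls over all genes with each array left out are those given above.

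Of 21 genes for folding and modification in the endoplasmic reticulum, 2 were called higher and 0 lower. P3h3, of the prolyl 3-hydroxylase family, gave 1322, 635 and 1141 in naïve and 3551, 4387 and 5529 in iLarge T BMSC. Its groups did not overlap, with a log2 fold change of 2.16 ± 0.37 (SE, limma adjusted p = 0.0105). The call was lost without iLarge T replicate 4 or iLarge T replicate 6 (limma adjusted p = 0.0556 and 0.0572). Fkbp14, a prolyl isomerase of the endoplasmic reticulum, gave 8485, 2882 and 2556 and then 17823, 13467 and 14191. Its log2 fold change was 1.92 ± 0.42 (SE, limma adjusted p = 0.0314), but its most variable probe set gave -0.54 and the mean of its probe sets 0.69, neither of them called (limma adjusted p = 0.917 and 0.67). Without naïve replicate 3, naïve replicate 5, iLarge T replicate 2, iLarge T replicate 4 or iLarge T replicate 6, Fkbp14 was not called (limma adjusted p = 0.129, 0.111, 0.123, 0.104 and 0.102). Serpinh1, the collagen chaperone HSP47, which like the other uncalled genes below was picked after its values were seen, gave 68214, 30692 and 36641 and then 70374, 51048 and 84441. Its groups overlapped (log2 fold change 0.66 ± 0.34, limma adjusted p = 0.353).

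Of 10 genes for procollagen processing and cross-linking, 0 were called by limma, and their median log2 fold change was 1.14. At an unadjusted limma p under 0.05, 7 were higher and 1 lower, against 2106 and 1905 of all 18193 genes. Loxl1, a lysyl oxidase that cross-links matrix, gave 12376, 19578 and 18472 in naïve and 28820.2, 38089 and 33969 in iLarge T BMSC. All iLarge T arrays were above all naïve arrays, and the log2 fold change of 1.02 ± 0.26 missed the threshold (limma adjusted p = 0.055). Lox itself overlapped between groups, with a log2 fold change of 0.87 ± 0.37 (limma adjusted p = 0.255).

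The proteoglycans that bind fibrils moved both ways, with 1 of 15 genes called higher and 2 lower. Fmod, fibromodulin, which binds type I fibrils and shapes their growth, gave 452, 462 and 489 in naïve and 16419.8, 1637 and 5685 in iLarge T BMSC. The naïve arrays were nearly equal and the iLarge T arrays were all higher but spread, with a log2 fold change of 3.52 ± 0.69 (SE, limma adjusted p = 0.019). Leaving out naïve replicate 3, iLarge T replicate 2 or iLarge T replicate 6 ended the call (limma adjusted p = 0.0615, 0.0573 and 0.084). Without iLarge T replicate 2 the fitted change was 2.71 and it was 4.37 when iLarge T replicate 4 was left out. Dcn, decorin, which limits fibril width, gave 102243, 101898 and 112499 and then 46713, 30970.4 and 58592. No array of one group reached those of the other, with a log2 fold change of -1.26 ± 0.28 (SE, limma adjusted p = 0.0301). The call was lost without naïve replicate 3, naïve replicate 5, iLarge T replicate 2 or iLarge T replicate 4 (limma adjusted p = 0.117, 0.13, 0.0768 and 0.14). The call did not hold with the most variable probe set (-0.32, limma adjusted p = 0.938) or with the mean of the probe sets of Dcn (-0.79, limma adjusted p = 0.433). Ogn, osteoglycin, gave 48295, 27223 and 32834 and then 4901, 19974 and 4396. Replicate 4 was the highest iLarge T array and still below all naïve arrays, and the log2 fold change was -2.22 ± 0.52 (SE, limma adjusted p = 0.0411). Without naïve replicate 3, naïve replicate 5, iLarge T replicate 2 or iLarge T replicate 6, Ogn was not called (limma adjusted p = 0.0863, 0.0993, 0.156 and 0.154). Without iLarge T replicate 4 the fitted change was -2.92.

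Of 10 regulators of collagen genes, 2 were called higher and 0 lower. Prrx1, a homeobox factor of limb and craniofacial mesenchyme, gave 3451, 2752 and 3020.5 in naïve and 12125, 18089 and 12686 in iLarge T BMSC. The groups were well apart, with a log2 fold change of 2.20 ± 0.26 (SE, limma adjusted p = 0.00198), and the call was kept whichever array was left out. Creb3l1, a membrane-bound factor known to drive type I collagen in osteoblasts, gave 3251, 1760.4 and 2086 and then 6128, 6052 and 7009. Its log2 fold change was 1.48 ± 0.30 (SE, limma adjusted p = 0.0227). Leaving out naïve replicate 3, naïve replicate 5, iLarge T replicate 2, iLarge T replicate 4 or iLarge T replicate 6 ended the call (limma adjusted p = 0.112, 0.0916, 0.0708, 0.09 and 0.0903). Sox9, the factor known to drive Col2a1 in cartilage, gave 1865, 299.7 and 291 and then 1152, 2306 and 769. Naïve replicate 1 lay among the iLarge T arrays, and the log2 fold change of 1.22 ± 0.75 was not called (limma adjusted p = 0.468). Sox6 gave 29.0, 39.1 and 104 and then 449, 405 and 354, without overlap. It was not called (log2 fold change 3.03 ± 0.92, limma adjusted p = 0.103). Sox5 went the other way, at 439, 477 and 447 and then 379, 330 and 211. Its groups did not overlap either, and it was not called (log2 fold change -0.61 ± 0.60, limma adjusted p = 0.686).

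**Figure D5:**
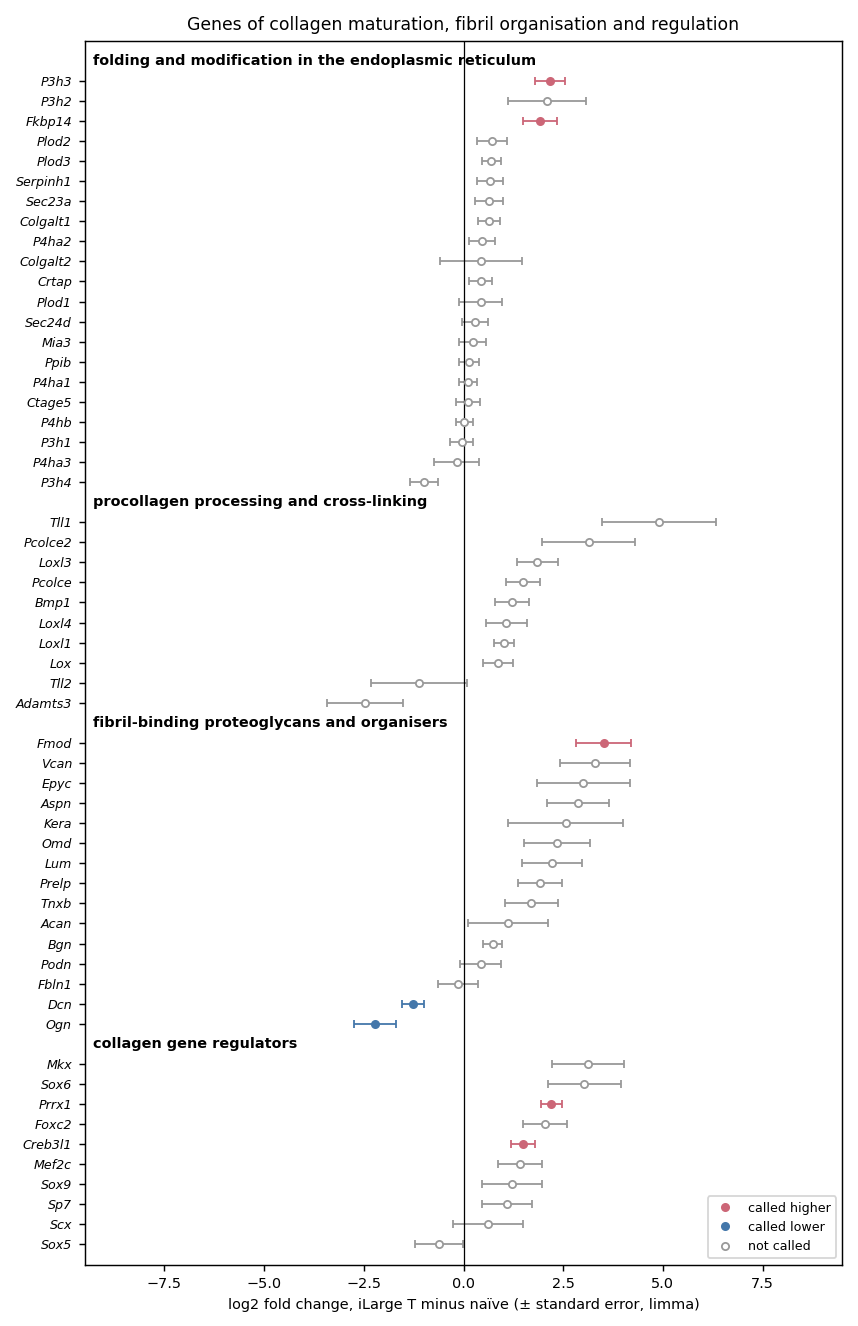
Log2 fold changes (horizontal axis, iLarge T minus naïve, 3 arrays per group) of 56 genes of collagen folding, processing, fibril organisation and regulation, as points with standard errors from limma. Red points are the 5 genes called higher, blue points the 2 genes called lower (Dcn and Ogn) and open grey points the 49 genes not called, most of which lie to the right of 0.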

How the data were processed

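RNA of 3 naïve Large T BMSC pools and 3 iLarge T BMSC pools had been hybridized to Affymetrix mouse genome arrays, 1 colour each. The deposited values are linear intensity signals that the authors made with MAS5 in Affymetrix software, each array scaled to a trimmed mean of 2500, with no detection calls. Groups came from the sample titles. Log2 was taken, 64 control probe sets were left out, and 45037 probe sets were tested with limma 3.58.1 in R 4.3.3 (lmFit, eBayes with an intensity trend, Benjamini-Hochberg). Genes were called at an adjusted p under 0.05 with a change of at least 2-fold. The methods' t-test was run as an alternative. Gene symbols came from the platform annotation, which pairs 34945 probe sets with 1 symbol, 932 with several and 9160 with none, and those with several name no gene here. All 42 collagen genes were matched by gene identifier to RefSeq (GRCm38.p6), which also gave the sequences. No genome build is given in the sources used here for the arrays.

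The test was checked on simulated data with known changes, in which the spread of a probe set depended only on its mean signal. The check therefore took the intensity trend as given and cannot show whether that trend is right for these arrays. A gene with several probe sets is represented by that with the highest mean log2 signal. Every collagen gene could be named. Values per array are given for called members and for members whose brighter group reached the median signal of all genes, and for a few dimmer ones chosen after their values were seen. Up to 4 called genes were named per other list. The collagen types, the lists of collagen maturation genes and the lists of stromal, macrophage and microglia, endothelial, mural, glial, mesothelial, chondrocyte and meningeal markers were chosen with earlier results of these data known. Fkbp10, Adamts2, Adamts14, Loxl2 and Runx2 of the lists are not analysed here. Alternatives were 17 planned settings and 2 added after the data were seen. The number of arrays limits the precision. Summaries used Python 3.11.15 with pandas 2.3.3 and numpy 2.4.6, and figures matplotlib 3.10.9.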

Additional observations from a re-analysis of the deposited data

How the results depend on the processing

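The methods' t-test on log2 signals, that on linear signals and limma without the intensity trend each called 0 collagen genes higher, 0 lower, 0 maturation and organiser genes higher and 0 lower, with smallest adjusted p-values of 0.0773, 0.0911 and 0.0581 for collagen genes and 0.0711, 0.0782 and 0.0678 for the others. Over all 18193 genes these settings called 7 higher and 7 lower, 17 and 36, and 85 and 48 in turn. Leaving out 1 array at a time gave 2 to 13 collagen genes higher and 1 to 3 lower, 1 to 17 maturation and organiser genes higher and 0 to 3 lower, and a collagen median of 0.48 to 0.97 (log2). Over all genes it gave 250 to 1298 higher and 232 to 1214 lower. The largest counts of higher calls came without naïve replicate 1. The collagen median was 0.54 with quantile normalization, 0.54 with the most variable probe set and 0.50 with the mean of a gene's probe sets. Raising signals under the 40th percentile to it gave 0.34, where the median of all genes was 0.17. That setting gave 12 collagen genes higher (Col1a1, Col1a2, Col5a3 and Col6a3 besides the 8), 15 maturation and organiser genes higher, and 971 of all genes. The mean of the probe sets gave 5 collagen genes higher, 8 maturation and organiser genes higher and 1 lower. A threshold of 4-fold gave 5 collagen genes higher, 3 maturation and organiser genes higher and 1 lower. With the most variable probe set, the log2 fold change was -0.77 for Col12a1 and -0.54 for Fkbp14. Of the single-gene values of called genes, 55 kept and 53 lost their call with an array left out, and 127 kept, 69 lost and 2 turned under the other planned settings.

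The labels give the groups different replicate numbers and so pair no arrays. After the data were seen, 2 alternatives were added. Arrays 1 and 2, 3 and 4, and 5 and 6 had close spike-in control signals, which differed by 0.173 to 0.293 (mean absolute log2) within these pairs and by 0.516 to 1.49 between other arrays, and as a block they gave 12 collagen genes higher (Col1a1, Col1a2, Col5a3 and Col6a3 besides the 8) and 3 lower, and 11 maturation and organiser genes higher. With the block, 910 of all genes were called higher and 885 lower. Whether arrays so paired were processed together was not tested. Without naïve replicate 1 and iLarge T replicate 6, 11 collagen genes were called higher and 4 lower, and 15 maturation and organiser genes higher, with Col10a1 (limma adjusted p = 0.0559) and Ogn (limma adjusted p = 0.119) no longer called. Over all genes, 1211 were then called higher and 1321 lower. The causes of these changes were not tested.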
